A study of Homo sapiens with 6 samples.

Results

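The genes described here encode death receptors, a death ligand and the proteins that receptors assemble inside the cell to start extrinsic apoptosis. They are TNFSF10, FAS, TNFRSF10A, TNFRSF10B, TNFRSF1A, TNFRSF10C, TNFRSF10D, FADD, CASP8 and CFLAR. The 10 genes were chosen by symbol for their place in the pathway, with earlier results of these data known, and each had a row among the 35474 genes of the deposited count table. All 10 passed the filter on low counts, which left 20776 genes for testing.

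RNA was sequenced from A549, an established human lung adenocarcinoma cell line, 48 h after transfection with siRNA. One group of 3 libraries received siRNA against BAP18 (siBAP18) and the other group of 3 received a nontargeting siRNA (siCtrl), with no further treatment in either. BAP18 is a chromatin-associated protein whose gene is listed under the symbol C17orf49, and the comparison asks which transcripts changed when it was depleted. The methods name 3 siRNAs against BAP18 and do not say which of them these cultures received, so a sequence effect of a single siRNA cannot be told apart from loss of BAP18. The labels call the 3 libraries of each group biological replicates.

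Death receptors are members of the TNF receptor superfamily that carry a death domain on their cytoplasmic side. Binding of a ligand such as FASL or TRAIL lets FAS or a TRAIL receptor recruit the adaptor FADD, which in turn gathers procaspase-8 into a complex in which the caspase becomes active. Decoy receptors bind TRAIL without a working death domain, and FLIP, the product of CFLAR, competes with procaspase-8 in the complex. TNF receptor 1 mostly forms a different first complex that leads to NF-kappaB signaling, and lung cancer lines are known to vary in how they respond to TRAIL.

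The count of C17orf49 was 743, 751 and 705 in siCtrl but 120, 137 and 108 in siBAP18, a log2 fold change of −2.65. Total counts ranged from 46035635 to 53657450 in siCtrl and from 42094524 to 56548620 in siBAP18. A count of 0 in a library allows up to 3 counts of its total, for counting error only. This floor takes the counts as independent. Some genes of low count, such as VWF and LTA, had only even counts in these paired-end libraries, so the floor may be too low. Mitochondrial transcripts took 6.86 to 7.43% of counts in siCtrl and 5.27 to 6.14% in siBAP18, and the part of this shift in the results was not tested. The epithelial keratins KRT8 and KRT18 were abundant, at a mean of 1948 and 1859 RPKM in siCtrl, and EPCAM and CDH1 were present at 33.6 and 10.3 RPKM. In siBAP18 CDH1 was at 4.14 RPKM, a log2 fold change of −1.32 (edgeR adjusted p = 3.81e-14). KRT8, KRT18 and EPCAM were at log2 fold changes of −0.37, −0.24 and −0.41, and the keratin KRT7 was at 0.43. Of 9 markers of leukocytes, endothelium and fibroblasts, 6 had a row, and together they summed to 12.7 to 14.0 CPM of unscaled totals in siCtrl and 9.29 to 11.3 in siBAP18, mostly COL1A1. VWF had at most 6 counts in any library.

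After BAP18 knockdown, transcripts of FAS, TNFRSF10A, TNFRSF10B, TNFRSF10D and FADD rose, transcripts of TNFSF10 (TRAIL) and TNFRSF1A fell, and CASP8 did not pass the test. TNFRSF10C and CFLAR also passed as higher, but their calls were lost in 8 and 9 of 17 alternatives. At an adjusted p under 0.05 (quasi-likelihood test of edgeR, Benjamini-Hochberg adjusted over all genes tested), 7 of the 10 were higher, against 24.5% of all genes tested, and 2 were lower, against 25.1%. In either direction this came to 9 of 10 genes, against a background of 49.6%. Past a log2 fold change of 1 as well, FAS and TNFRSF10D were higher, where 4.72% of all genes tested were, and TNFSF10 was lower, where 3.74% were. FAS was under that fold without siBAP18 replicate 1 (log2 fold change 0.99), with limma on RPKM (0.73 to 0.99) and with antisense reads removed (0.60), which left TNFRSF10D as the 1 higher gene. The median log2 fold change of the 10 genes was 0.46, and that of all genes tested was 0.00102. In 8 of the 10 genes the groups did not overlap in CPM (counts divided by the library total after TMM scaling), as was the case in 56.6% of all genes tested. The RNA came from whole cultures, so that fewer cells of a kind and less RNA per cell cannot be told apart.

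**Figure D1:**
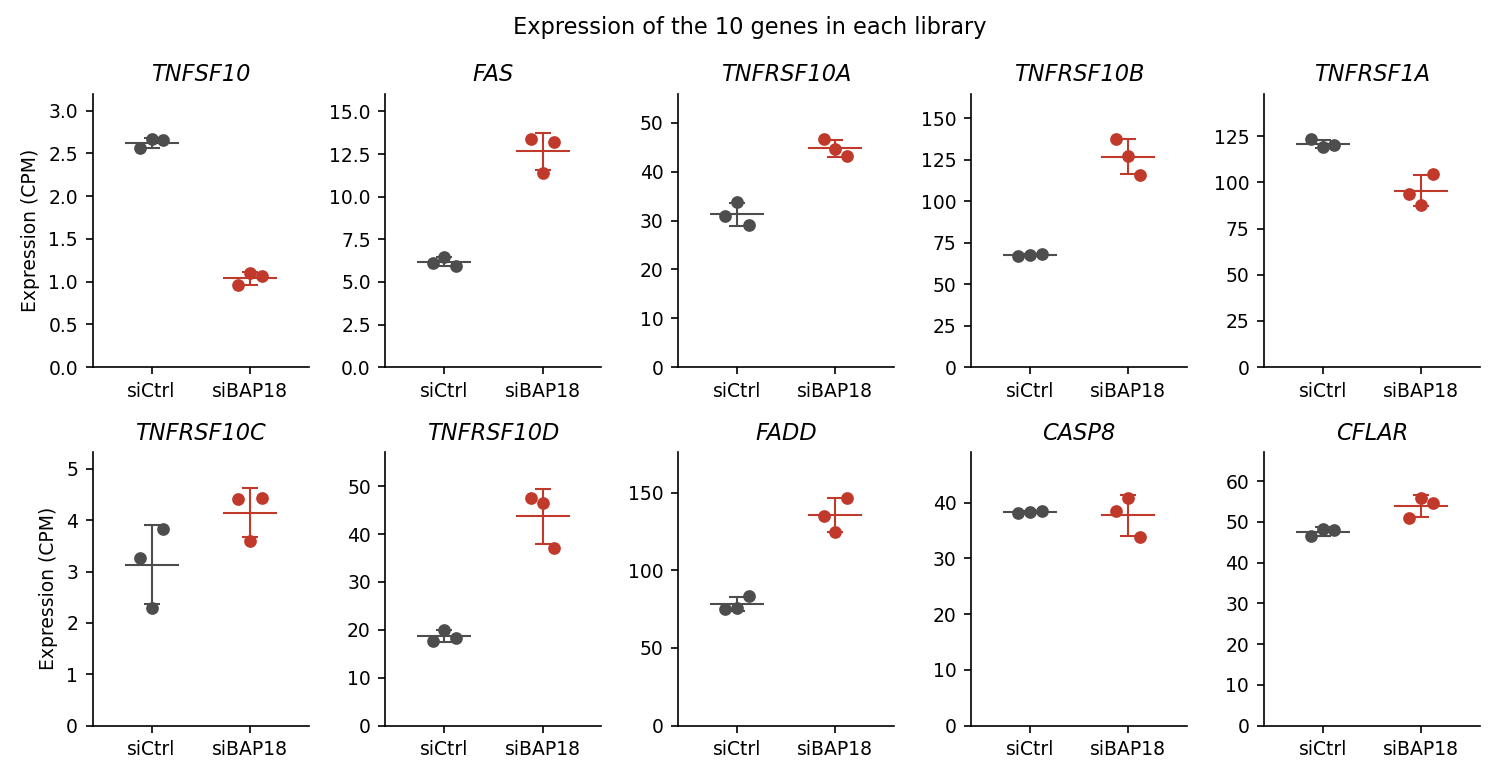
Expression of the 10 genes in CPM (vertical axis, starting at 0, a separate scale for each gene) in each siCtrl (gray) and siBAP18 (red) library. Points are libraries, long bars the mean and whiskers the SD of 3 libraries. The groups are apart in 8 genes and overlap in TNFRSF10C and CASP8.

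Promoters are shown for 3 genes at different steps of the pathway, namely a receptor and the adaptor, which rose, and the ligand, which fell. RefSeq promoter windows of GRCh38.p14, from 250 bases before the most upstream listed start to 50 bases after it, could be matched for 6 of the 10 genes, and 3 are printed 5′ to 3′ on the strand of the gene. Capitals mark matches to motifs searched on both strands, and positions are counted from that RefSeq start. For the 3 printed genes it lies inside the gene span given below, so the positions do not count from the 5′ end of that span. FAS is at chr10:88990548-88990847 on the + strand, FADD at chr11:70203046-70203345 on the + strand and TNFSF10 at chr3:172523381-172523680 on the − strand.
FAS: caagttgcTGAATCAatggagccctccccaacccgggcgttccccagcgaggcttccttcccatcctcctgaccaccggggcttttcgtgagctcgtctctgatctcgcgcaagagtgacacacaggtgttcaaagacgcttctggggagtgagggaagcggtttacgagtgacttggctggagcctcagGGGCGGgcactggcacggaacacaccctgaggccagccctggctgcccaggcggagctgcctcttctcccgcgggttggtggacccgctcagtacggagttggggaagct
FADD: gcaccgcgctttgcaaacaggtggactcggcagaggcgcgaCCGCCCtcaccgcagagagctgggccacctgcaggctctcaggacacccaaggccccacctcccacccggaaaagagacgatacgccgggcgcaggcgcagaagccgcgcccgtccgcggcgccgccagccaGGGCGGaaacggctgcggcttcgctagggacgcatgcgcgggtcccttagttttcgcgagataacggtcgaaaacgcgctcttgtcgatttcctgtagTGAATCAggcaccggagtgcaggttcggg
TNFSF10: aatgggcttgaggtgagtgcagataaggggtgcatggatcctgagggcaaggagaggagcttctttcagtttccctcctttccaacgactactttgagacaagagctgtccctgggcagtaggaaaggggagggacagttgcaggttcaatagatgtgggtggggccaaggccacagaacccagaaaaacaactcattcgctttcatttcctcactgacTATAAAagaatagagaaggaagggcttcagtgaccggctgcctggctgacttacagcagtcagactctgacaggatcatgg

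The FAS and FADD windows were rich in G and C (63.0% and 66.7%) and held 18 and 36 CpG dinucleotides, whereas the TNFSF10 window held 3 at a G and C content of 51.0%. In FAS the capitals mark a match to TGANTCA, a loose AP-1 pattern in which N is any base, from −242 to −236. They also mark a GC box (GGGCGG) from −60 to −55. In FADD they mark GC boxes from −209 to −204, on the opposite strand, and from −77 to −72. A match to the same AP-1 pattern lies there from 21 to 27, and both AP-1 matches read TGAATCA. In TNFSF10 the capitals mark a TATA box (TATAAA) from −31 to −26. Of 11493 promoters of genes tested, 4.95% held a match to the AP-1 pattern, 67.1% a GC box and 6.22% a TATA box. The windows of CASP8 and CFLAR each held a GC box, that of CFLAR overlapping an NF-kappaB motif (found in 6.64% of those promoters), and the window of TNFRSF1A held none of the 6 motifs searched, which also included a CRE (TGACGTCA, 3.03%) and an EGR1 motif (GCGTGGGCG, 1.27%). A match describes letters in a window and shows no binding.

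TNFSF10, on chromosome 3 from 172505508 to 172523507 on the − strand, encodes TRAIL, the ligand of the TRAIL receptors. Its counts were 136, 124 and 124 in siCtrl and 52, 64 and 43 in siBAP18. All 3 siBAP18 libraries lay below all 3 siCtrl libraries. Expression fell from 2.63 ± 0.0595 CPM (SD, n = 3) in siCtrl to 1.04 ± 0.0730 CPM (SD, n = 3) in siBAP18, to 0.396 of the control level (95% interval 0.305 to 0.513). The log2 fold change was −1.34 (SE 0.182, edgeR adjusted p = 1.03e-06). With limma on log2(RPKM + 1), where the added 1 exceeds the gene's own level, the value was −0.43, and the gene was no longer past a log2 fold change of 1. TNFSF10 was the lowest of the 10 genes in both groups on a per length scale, and the one of the 10 with the largest fall.

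FAS, on chromosome 10 from 88990582 to 89015785 on the + strand, encodes the receptor for FASL. Its counts were 326, 301 and 278 in siCtrl and 728, 666 and 536 in siBAP18. Every siBAP18 library was above every siCtrl library. Expression rose from 6.18 ± 0.266 CPM (SD, n = 3) to 12.7 ± 1.10 CPM (SD, n = 3), which was 2.05-fold (95% interval 1.78 to 2.35; log2 fold change 1.03, SE 0.0982, edgeR adjusted p = 3.00e-09). FAS lay close to the fold threshold, and without siBAP18 replicate 1 its log2 fold change was 0.99.

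The exons of FAS share 380 bases (88990960 to 88991339 on chromosome 10, 10.1% of the length counted for FAS) with those of ACTA2, smooth muscle actin, on the opposite strand. In GENCODE 29 the shared bases lie in 2 of 3 protein-coding ACTA2 transcripts and in 0 of 4 protein-coding FAS transcripts. ACTA2 rose by a log2 fold change of 1.89 (edgeR adjusted p = 2.22e-15), from 638, 491 and 580 counts in siCtrl to 2422, 2286 and 1880 in siBAP18. The libraries were strand-specific, but whether the counting used strand is not given in the sources used here, so that reads on these bases cannot be assigned to either gene. If even coverage of ACTA2 is assumed and the reads it would place there are taken away, the FAS counts become 245, 238 and 204 in siCtrl and 419, 374 and 296 in siBAP18. The groups were then still apart and the log2 fold change was 0.60 (SE 0.115, edgeR adjusted p = 1.06e-04), a setting chosen after the overlap had been seen.

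TNFRSF10A and TNFRSF10B encode TRAIL-R1 (DR4) and TRAIL-R2 (DR5), the receptors that pass the TRAIL signal on through a death domain. They lie on chromosome 8 on the − strand, TNFRSF10A from 23190452 to 23225126 and TNFRSF10B from 23020133 to 23069179. TNFRSF10A had 1649, 1573 and 1359 counts in siCtrl and 2539, 2602 and 1753 in siBAP18. Scaled to the library totals, all siBAP18 libraries were above all siCtrl libraries, and expression rose from 31.3 ± 2.39 CPM (SD, n = 3) to 44.8 ± 1.72 CPM (SD, n = 3). This was 1.43-fold (95% interval 1.29 to 1.59; log2 fold change 0.52, SE 0.0728, edgeR adjusted p = 1.65e-06).

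TNFRSF10B had 3550, 3146 and 3179 counts in siCtrl and 7478, 7417 and 4704 in siBAP18. The siCtrl libraries lay within 66.7 to 68.0 CPM and the siBAP18 libraries were spread from 116 to 137 CPM, with replicate 3 the lowest. The mean went from 67.5 ± 0.649 CPM (SD, n = 3) to 126.8 ± 10.7 CPM (SD, n = 3), or 1.88-fold (95% interval 1.70 to 2.08; log2 fold change 0.91, SE 0.0702, edgeR adjusted p = 7.07e-11). With each library left out in turn, the log2 fold change of TNFRSF10B lay between 0.85 and 0.97 and that of TNFRSF10A between 0.47 and 0.57. Small stretches of both genes overlap genes on the opposite strand, and taking away the reads of these left the log2 fold changes at 0.52 for TNFRSF10A and 0.91 for TNFRSF10B.

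TNFRSF10C and TNFRSF10D encode the decoy receptors DcR1, which is held in the membrane by a lipid anchor, and DcR2, whose death domain is truncated. Both lie in the same stretch of chromosome 8, TNFRSF10D from 23135588 to 23164030 on the − strand and TNFRSF10C from 23084355 to 23117437 on the + strand. TNFRSF10D had 944, 930 and 860 counts in siCtrl and 2591, 2712 and 1504 in siBAP18. The groups did not overlap, and siBAP18 replicate 3 was again the lowest of its group. Expression rose from 18.7 ± 1.16 CPM (SD, n = 3) to 43.7 ± 5.76 CPM (SD, n = 3), or 2.34-fold (95% interval 2.07 to 2.65; log2 fold change 1.23, SE 0.0864, edgeR adjusted p = 1.40e-11). This was the largest rise of the 10 genes, and in the 17 alternatives run its log2 fold change lay between 1.08 and 1.33.

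TNFRSF10C had 174, 107 and 179 counts in siCtrl and 240, 210 and 180 in siBAP18. The groups overlapped, with 3.83 CPM in siCtrl replicate 3 and 3.60 CPM in siBAP18 replicate 2. The mean was 3.13 ± 0.774 CPM (SD, n = 3) in siCtrl and 4.15 ± 0.479 CPM (SD, n = 3) in siBAP18 (log2 fold change 0.40, SE 0.159, edgeR adjusted p = 0.0399). The call was lost without siCtrl replicate 2, the lowest library, at a log2 fold change of 0.22 (edgeR adjusted p = 0.279). It was also lost without siCtrl replicate 1, siBAP18 replicate 1 or siBAP18 replicate 3 (edgeR adjusted p = 0.0635, 0.134 and 0.0776). Over all alternatives the adjusted p of TNFRSF10C ranged from 0.00991 to 0.279, and the call was lost in 8 of 17. No word of 50 bases was shared between protein-coding GENCODE 29 transcripts of any pair of the 10 genes, the 4 TRAIL receptor genes included.

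TNFRSF1A, on chromosome 12 from 6328757 to 6342114 on the − strand, encodes TNF receptor 1. Its counts were 6566, 5537 and 5626 in siCtrl and 5106, 5136 and 4240 in siBAP18. Scaled to library totals the groups were apart, at 119 to 123 CPM in siCtrl and 87.9 to 104.6 CPM in siBAP18. Expression fell from a mean of 121 CPM (SD 2.26, n = 3) to 95.5 CPM (SD 8.44, n = 3), or to 0.789 of the control level (95% interval 0.714 to 0.872; log2 fold change −0.34, SE 0.0701, edgeR adjusted p = 2.22e-04). Of the 6 receptor genes among the 10, TNFRSF1A was the one that fell.

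FADD, on chromosome 11 from 70203163 to 70207390 on the + strand, encodes the adaptor that links FAS and the TRAIL receptors to procaspase-8. Its counts were 4000, 3536 and 3914 in siCtrl and 7347, 7284 and 5950 in siBAP18. No siBAP18 library was as low as any siCtrl library. Expression rose from 78.3 ± 4.70 CPM (SD, n = 3) to 135.5 ± 11.0 CPM (SD, n = 3), or 1.73-fold (95% interval 1.56 to 1.92; log2 fold change 0.79, SE 0.0722, edgeR adjusted p = 1.48e-09). An antisense RNA, RP11-805J14.5, lies with its whole length of 1011 bases within the exons of FADD, 54.9% of the length counted for FADD, and had a log2 fold change of 0.77 (edgeR adjusted p = 1.16e-08). Without knowing the use of strand, the reads of the antisense RNA and of FADD cannot be told apart on those bases. Taking away the antisense reads left 3143, 2839 and 3120 counts in siCtrl, 5843, 5804 and 4768 in siBAP18, and a log2 fold change of 0.795. Because the antisense RNA had nearly the log2 fold change of FADD, this removal could hardly move the value and does not separate their reads.

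CASP8, on chromosome 2 from 201233443 to 201287711 on the + strand, encodes caspase-8, the initiator caspase of the pathway. Its counts were 2027, 1781 and 1802 in siCtrl and 2095, 2389 and 1369 in siBAP18. The siCtrl libraries lay within 38.1 to 38.5 CPM, and the siBAP18 libraries lay around them, from 33.8 CPM in replicate 3 to 40.9 CPM in replicate 2. The mean was 38.3 ± 0.220 CPM (SD, n = 3) in siCtrl and 37.7 ± 3.63 CPM (SD, n = 3) in siBAP18. The log2 fold change was −0.02 (SE 0.0743, edgeR adjusted p = 0.844), and the 95% interval of the ratio, 0.887 to 1.10, bounds the size of any change. Without siBAP18 replicate 3 the sign turned, to 0.054.

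CFLAR, upstream of CASP8 on chromosome 2 from 201116104 to 201176687 on the + strand, encodes FLIP, the caspase-8 homolog without protease activity that holds back the receptor complex. Its counts were 2472, 2249 and 2249 in siCtrl and 2768, 3269 and 2218 in siBAP18. The groups were narrowly apart, at 46.5 to 48.4 CPM in siCtrl and 50.9 to 56.0 CPM in siBAP18. The mean was 47.6 ± 1.02 CPM (SD, n = 3) in siCtrl and 53.9 ± 2.66 CPM (SD, n = 3) in siBAP18, 1.13-fold (95% interval 1.03 to 1.25; log2 fold change 0.18, SE 0.0678, edgeR adjusted p = 0.0331). This call was lost in 9 of 17 alternatives, and the adjusted p ranged from 0.0178 to 0.178. It was lost without siCtrl replicate 1, 2 or 3 (edgeR adjusted p = 0.163, 0.0849 and 0.0924) and without siBAP18 replicate 2 (0.0651). A pseudogene on the opposite strand, IMPDH1P10, shares 1488 bases with the exons of CFLAR and had a log2 fold change of 1.89, and with antisense reads taken away CFLAR was at 0.13 (edgeR adjusted p = 0.111). Counts per gene do not separate the long and short forms of FLIP.

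**Figure D2:**
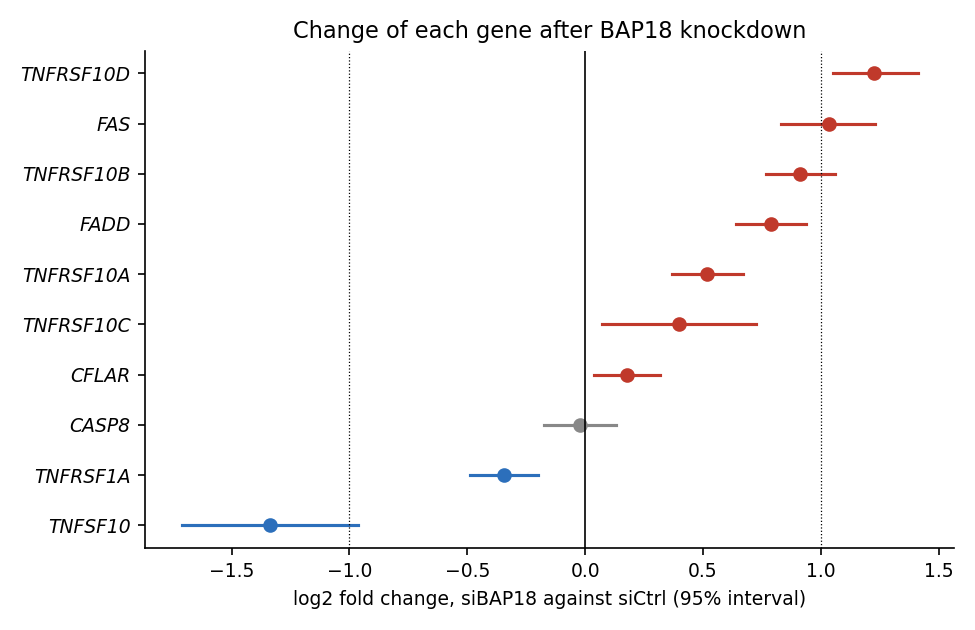
Log2 fold change of each gene, siBAP18 against siCtrl (horizontal axis), with its 95% interval, in order of size. Red marks higher, blue lower and gray not past an adjusted p of 0.05, and dotted lines mark log2 fold changes of 1 and −1. The values run from −1.34 for TNFSF10 to 1.23 for TNFRSF10D.

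Levels of different genes were compared per length, as RPKM (counts relative to listed exon length and library total). In siCtrl cells FADD was highest, at 42.5 RPKM, followed by TNFRSF1A at 30.1, TNFRSF10B at 13.1 and TNFRSF10A at 10.6. TNFRSF10D and CASP8, at 5.28 RPKM each, came next and could not be ordered, since the libraries of TNFRSF10D (4.97 to 5.71) enclosed those of CASP8 (5.22 to 5.34). CFLAR at 2.11 RPKM, FAS at 1.65, TNFRSF10C at 1.19 and TNFSF10 at 0.754 followed, and neighbors in this part of the order did not overlap. In siBAP18 cells the order of means was FADD (73.6 RPKM), TNFRSF10B (24.6), TNFRSF1A (23.8), TNFRSF10A (15.2), TNFRSF10D (12.4), CASP8 (5.23), FAS (3.38), CFLAR (2.39), TNFRSF10C (1.58) and TNFSF10 (0.299). TNFRSF10B and TNFRSF1A overlapped there, at 21.7 to 26.8 and 22.7 to 25.2 RPKM, while in siCtrl TNFRSF1A was above TNFRSF10B in every library. FAS and CFLAR changed places between the groups, without overlap in either, in values that include reads on the bases FAS shares with ACTA2. With those reads taken away, the siBAP18 counts of FAS fell from 728, 666 and 536 to 419, 374 and 296. RPKM was not computed from the lower counts, so the places of FAS beside CFLAR and TNFRSF10C hold for the deposited values only. The listed exon length of CFLAR, 22529 bases, is the union of the exons of many transcripts, and RPKM is low for such a gene beside what a shorter transcript would give.

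**Figure D3:**
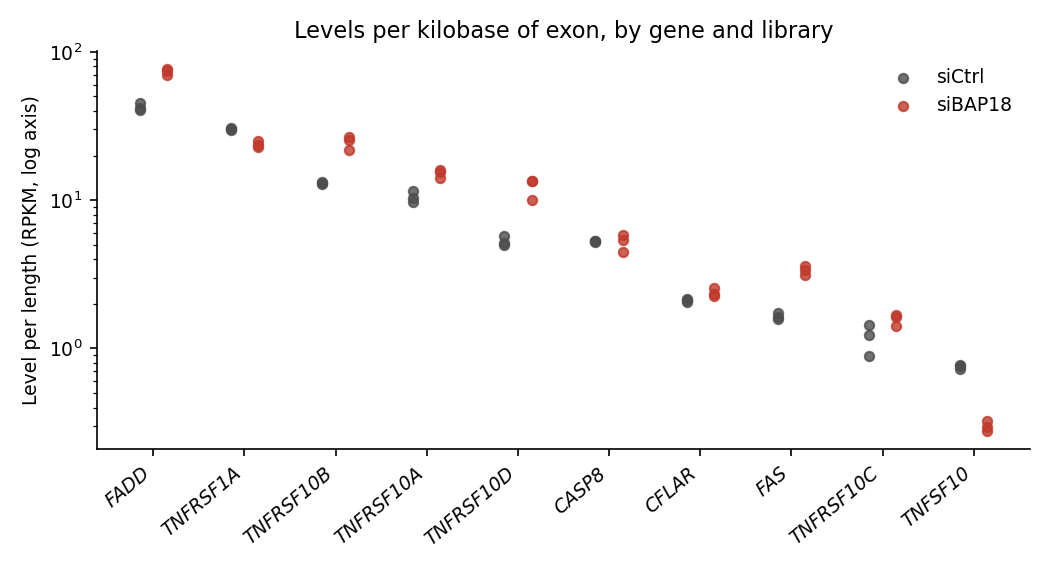
Levels per length in RPKM (vertical log axis) of the 10 genes in each siCtrl (gray) and siBAP18 (red) library, ordered by the siCtrl mean. Points are libraries. In siCtrl the means run from 42.5 RPKM for FADD to 0.754 RPKM for TNFSF10.

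Ratios between genes of the same library do not depend on how libraries are scaled, and 3 were compared, as counts per kilobase. The ratio of CFLAR, the inhibitor, to CASP8 was 0.392, 0.406 and 0.401 in siCtrl and 0.425, 0.440 and 0.521 in siBAP18. It was higher in all 3 siBAP18 libraries, by 0.20 on the log2 scale, and by 0.11 without siBAP18 replicate 3. The ratio of the decoy receptor gene TNFRSF10D to TNFRSF10B was 0.388, 0.431 and 0.394 in siCtrl and 0.505, 0.533 and 0.466 in siBAP18. It too was higher in all 3 siBAP18 libraries, by 0.31 on the log2 scale. The ratio of TNFRSF10A to TNFRSF10B was 0.812, 0.874 and 0.747 in siCtrl and 0.593, 0.613 and 0.651 in siBAP18, lower in all 3 siBAP18 libraries and by −0.39 on the log2 scale. With 3 libraries against 3, the exact two-sided permutation test gave p = 0.1 for each ratio (adjusted p = 0.1 over the 3), the smallest this design allows, so that none could pass a threshold of 0.05.

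The 4 TRAIL receptor genes lie side by side on chromosome 8, and CFLAR, CASP10 and CASP8 lie side by side on chromosome 2. Genes within 250000 bases of each cluster whose average log2 CPM was 0 or more were examined with the values of the 10 genes known. Around the TRAIL receptor genes, 7 of 10 neighbors were higher in siBAP18 and 0 were lower at an adjusted p under 0.05, against 24.5% and 25.1% of all genes tested. These shares were taken without the cut on average log2 CPM. The 7 are not all separate from the receptor genes, since RHOBTB2 shares 67 exon bases with TNFRSF10B and RP11-1149O23.3 shares 266 with TNFRSF10A. The span of RP11-875O11.1, another of the 7, overlaps that of RHOBTB2. The neighbors R3HCC1 (log2 fold change 1.26), LOXL2 (1.26), which encodes a lysyl oxidase, and RP11-177H13.2 (1.29), which overlaps LOXL2 on the opposite strand, had log2 fold changes at or above that of TNFRSF10D. RHOBTB2 (0.34) and CHMP7 (0.24) rose less than TNFRSF10B, and ENTPD4, at the far end, was at 0.13 (edgeR adjusted p = 0.178). Around CFLAR and CASP8, 1 of 13 neighbors was higher, 5 were lower and 7 did not pass. The higher one was the pseudogene IMPDH1P10 described above. TRAK2 (−1.04) and ORC2 (−0.69), a subunit of the origin recognition complex, were among the 5 that were lower, and CASP10, which encodes the other initiator caspase with death effector domains, was at −0.27 (edgeR adjusted p = 0.150).

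**Figure D4:**
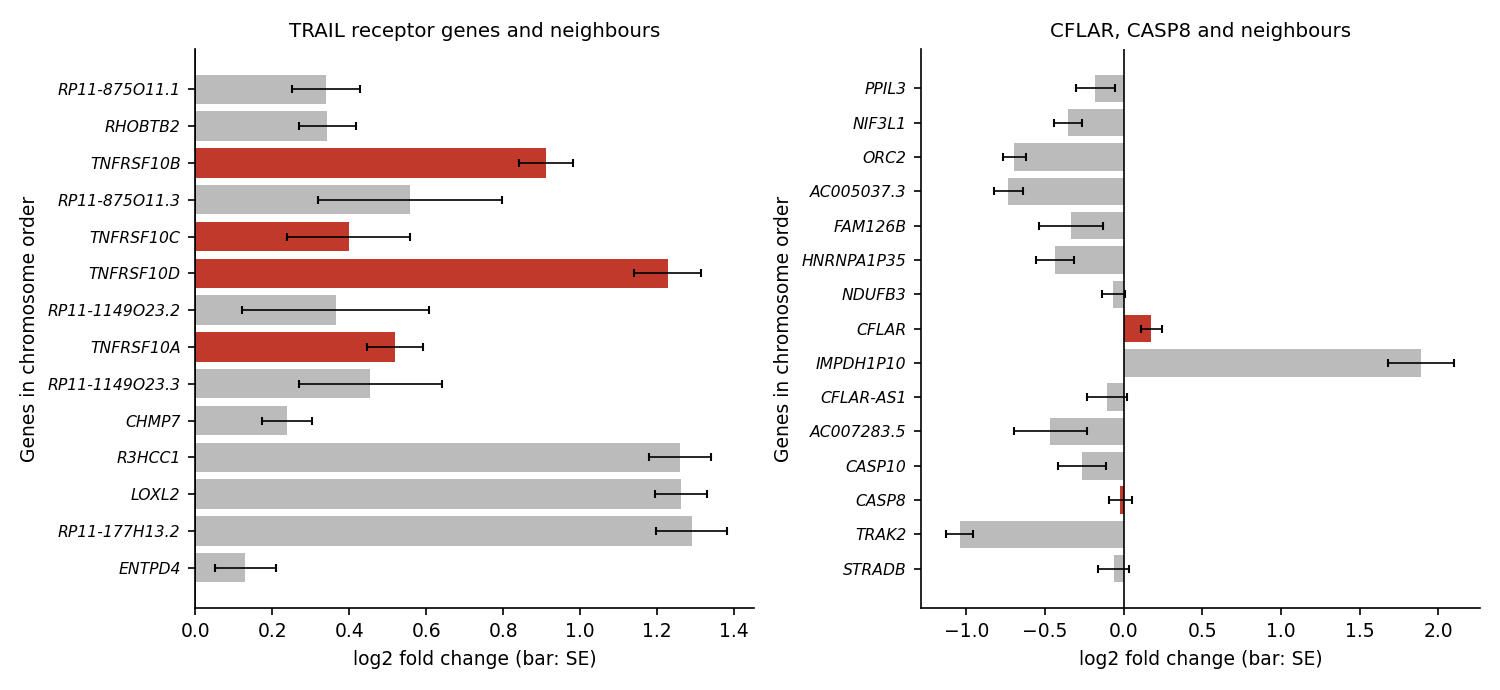
Log2 fold change (horizontal axis; whisker, SE) of genes in chromosome order around the 4 TRAIL receptor genes (left) and around CFLAR and CASP8 (right), with the genes described here in red and their neighbors in gray. On the left all bars are above 0, although 3 neighbors did not pass the test, and on the right the bars run from −1.04 for TRAK2 to 1.89 for IMPDH1P10.

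A list of 67 other genes of the extrinsic pathway was counted by role, and 65 had a row and 62 were tested. Among the 62, 19 were higher (30.6%) and 20 were lower (32.3%) at an adjusted p under 0.05, against 24.5% and 25.1% of all genes tested, and 23 did not pass. Past both thresholds 4 were higher, LTB, NGFR, TNFRSF12A and TNFAIP3, and 2 were lower, EDAR and GALNT3. The median log2 fold change of the 62 was −0.10, where that of the 10 genes was 0.46 and that of all genes tested 0.00102.

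Of the other ligands, LTB, which encodes lymphotoxin beta, was the 1 of 3 tested that rose, from 22, 10 and 20 counts in siCtrl to 109, 158 and 125 in siBAP18 (log2 fold change 2.86, SE 0.261, edgeR adjusted p = 1.52e-09). TNF had 0 to 2 counts in siCtrl and 0 to 4 in siBAP18, and lymphotoxin alpha (LTA) had 0 to 6 and 8 to 30, and neither was tested. Transcripts for TNF, the ligand of TNF receptor 1, were thus at or near the floor of 3 counts in every library. FASLG and RIPK3 have no row in the tables used here.

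Among the 5 receptors listed as other death receptors, 2 were higher and 2 lower, where 24.5% and 25.1% of all genes tested were. NGFR, the p75 neurotrophin receptor, rose from 16, 6 and 2 counts in siCtrl to 140, 107 and 86 in siBAP18 (log2 fold change 3.72, SE 0.343, edgeR adjusted p = 1.78e-09). EDAR, the ectodysplasin receptor, fell from 76, 58 and 50 counts to 10, 15 and 10 (log2 fold change −2.44, SE 0.314, edgeR adjusted p = 4.36e-07). EDA2R, the other ectodysplasin receptor, was listed with them although it lacks a death domain, and rose by 0.42 on the log2 scale. Among the 6 soluble decoys and other TNF receptors, 2 were higher and 0 lower, against the same shares, namely TNFRSF12A, the TWEAK receptor Fn14 (log2 fold change 1.99, SE 0.0828, edgeR adjusted p = 6.95e-16), and TNFRSF11B, the soluble decoy osteoprotegerin, which also binds TRAIL (0.85, edgeR adjusted p = 0.00228). TNFRSF12A went from 571, 472 and 497 counts to 2497, 2200 and 1675, and TNFRSF11B from 44, 39 and 47 to 86, 84 and 74.

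The 18 genes of complex I, the assembly that TNF receptor 1 forms first, had 6 higher, 6 lower and 6 not past the test (33.3% each way, where all genes tested had 24.5% higher and 25.1% lower). TNFAIP3 (A20), which removes ubiquitin chains, rose from 286, 286 and 271 counts to 964, 993 and 478 (log2 fold change 1.43, SE 0.121, edgeR adjusted p = 3.48e-10). The siBAP18 libraries were all above the siCtrl libraries, with replicate 3 the lowest of them. CYLD, another deubiquitinase, rose by 0.88 and the adaptor TRAF2 by 0.61 on the log2 scale. MLKL, the pore-forming protein of necroptosis, fell by 0.39 on the log2 scale, and ZBP1 had 0 counts in every siCtrl library and 2 to 6 in siBAP18 and was not tested.

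None of the 6 other caspases tested was higher, and 1, CASP2, was lower (log2 fold change −0.33), where 24.5% of all genes tested were higher and 25.1% lower. The log2 fold changes of the 6 ran from −0.33 to 0.086. Of 5 inhibitors of caspases and of the receptor complex, 2 were higher and 1 was lower, beside the same shares. PEA15, a protein with a death effector domain that binds FADD and caspase-8, rose from 2975, 2479 and 2540 counts to 5785, 5628 and 4624 (log2 fold change 0.95, SE 0.0712, edgeR adjusted p = 4.14e-11). The groups were far apart. ITCH, a ubiquitin ligase that acts on FLIP, rose by 0.18, and XIAP, which inhibits caspases, fell by 0.48 on the log2 scale.

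Of 10 genes of the mitochondrial link and of caspase substrates, 3 were higher and 4 lower, against 24.5% and 25.1% of all genes tested. LMNA rose by 0.66, and ROCK1 and PARP1, both cleaved by caspases, fell by 0.56 and 0.49 on the log2 scale. All 8 genes of FAS and TRAIL receptor trafficking and modification passed the test, 3 higher and 5 lower, where 49.6% of all genes tested passed it. ZDHHC7, which palmitoylates FAS, rose by 0.56, FAF1, a FAS-associated factor, rose by 0.31, and the sheddase ADAM17 fell by 0.54. GALNT3, an O-glycosyltransferase, had 48, 14 and 28 counts in siCtrl and 18, 8 and 14 in siBAP18, and the groups overlapped although the test was passed (log2 fold change −1.19, edgeR adjusted p = 0.0225).

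**Figure D5:**
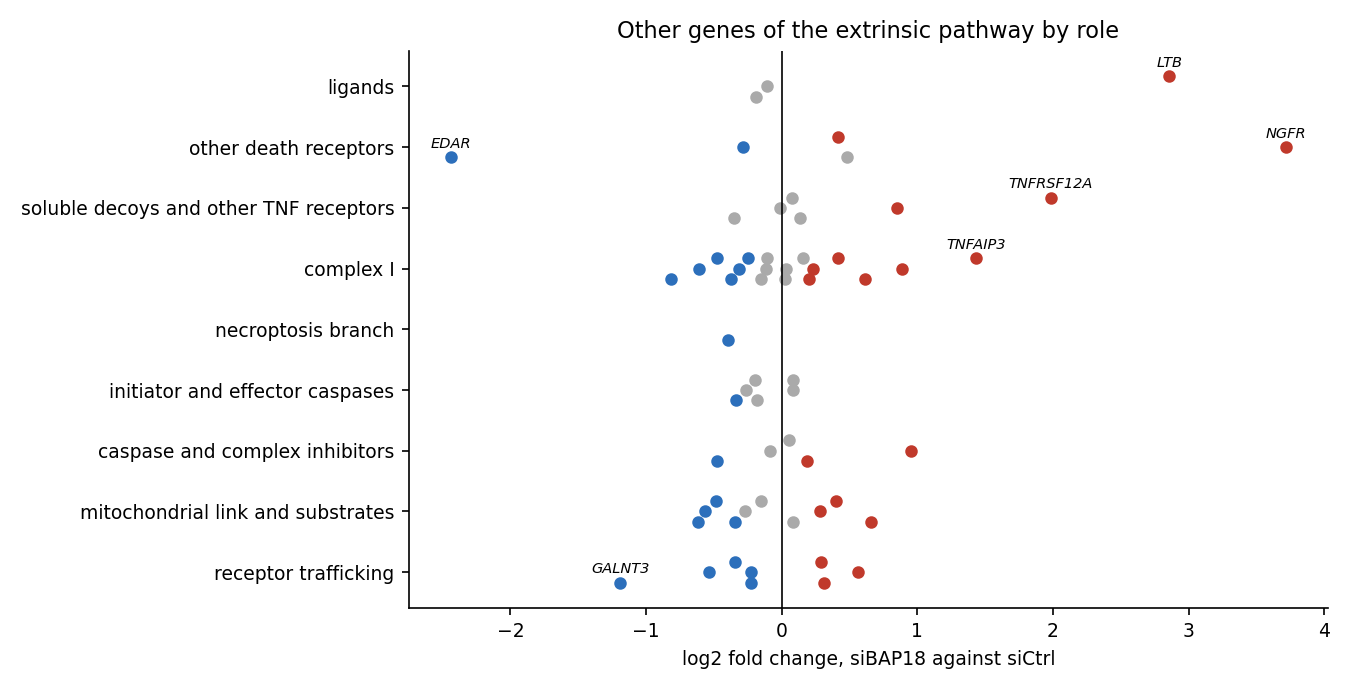
Log2 fold change, siBAP18 against siCtrl (horizontal axis), of the 62 other pathway genes tested, in rows by role. Each point is a gene, red higher, blue lower and gray not past an adjusted p of 0.05, and names mark the 6 genes past both thresholds. Points lie on both sides of 0 in most roles, from −2.44 for EDAR to 3.72 for NGFR.

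Stress-response genes outside the pathway were measured in the same libraries. CDKN1A, a cyclin-dependent kinase inhibitor, and MDM2, a ubiquitin ligase, were at log2 fold changes of 1.74 and 1.09. DDIT3, which encodes CHOP, a stress factor known to act on the TNFRSF10B promoter, was at 3.94 (edgeR adjusted p = 6.54e-22). Their part in the changes of FAS, FADD and the TRAIL receptor genes was not tested.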

How the data were processed

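Poly(A) RNA of 6 A549 cultures was sequenced as paired-end, dUTP strand-specific libraries per the labels. The authors deposited raw counts per gene and RPKM values, and the deposited RPKM were checked to equal the counts divided by listed exon length and library total. The submitters' processing notes name the builds hg38 and GRCm38, and the exon positions are those of the human build. The aligner, the counting program, its annotation and its use of strand are not given in the sources used here.

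Counts were analyzed in R 4.3.3 with edgeR 4.0.16: filterByExpr, TMM scaling, the quasi-likelihood test on condition and Benjamini-Hochberg adjustment over 20776 genes. SEs are |log2 fold change|/√F, and 95% intervals use the t distribution with 24.6 degrees of freedom. A gene was called past both thresholds where its adjusted p was under 0.05 and its log2 fold change over 1 or under −1. P-values and SEs rest on the spread between the 3 libraries of a group, moderated by that of the other genes tested. This moderation is part of the 24.6 degrees of freedom. No pair of replicates was a copy, since chi-square per degree of freedom was 4.13 to 4.79 between siCtrl and 11.1 to 25.7 between siBAP18 libraries. The siBAP18 libraries thus differed more among themselves, most between replicates 2 and 3. The fit nevertheless gave both groups the same dispersion for a gene. The fit was tested on simulated data.

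Alternatives scaled by DESeq2 size factors, by upper quartiles or by total counts alone, used the Wald test of DESeq2 1.42.0, tested all genes or those with 10 counts or more in each library, or took the replicate number as a block. Others ran limma 3.58.1 on log2(RPKM + 1), with a filter (mean RPKM 0.5 or more) or without, and on log2(RPKM + 0.1) with that filter, or left out each library. Removal of antisense reads was added after the data had been seen. Exon overlaps are from the exon positions listed with the deposited counts, and transcripts are from GENCODE 29. Ratios, overlaps and motifs came from Python 3.11.15 (scipy 1.17.1, pandas 2.3.3, numpy 2.4.6) and figures from matplotlib 3.10.9. Named are all 10 genes, C17orf49, in each role of the pathway list up to 3 genes with the smallest adjusted p under 0.05 and any gene past both thresholds, and DDIT3, CDKN1A and MDM2. LTA, TNF, ZBP1, marker genes, overlapping genes and chromosomal neighbors are named outside this rule, with their values seen. Some genes of these lists are not reported here. The genes and lists were chosen with earlier results of these data known.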

Additional observations from a re-analysis of the deposited data

How the results depend on the processing

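Of the 10 genes, 7 (FAS, TNFRSF10A, TNFRSF10B, TNFRSF10D, TNFRSF1A, TNFSF10 and FADD) stayed past an adjusted p of 0.05 in the same direction in all 17 alternatives. TNFRSF10C lost its call in 8 and CFLAR in 9. CASP8 ranged from −0.082 without siBAP18 replicate 2 to 0.054 without siBAP18 replicate 3 and did not pass the test in any. Past both thresholds, higher genes numbered 1 in place of 2 with limma on log2(RPKM + 1), with or without a filter, with limma on log2(RPKM + 0.1) and with antisense reads removed, and 1 to 2 with a library left out, 1 of them without siBAP18 replicate 1. Lower genes numbered 0 in place of 1 with limma on log2(RPKM + 1), with or without a filter. Among the 62 other pathway genes, those past both thresholds and lower numbered 1 in place of 2 with at least 10 counts in every library and 1 to 2 with a library left out, 1 of them without siCtrl replicate 1 and without siBAP18 replicate 2. They numbered 0 with all 3 limma settings, and higher ones 2 in place of 4 with limma on log2(RPKM + 1), with or without a filter. A large added constant shrinks the fold changes of genes of low RPKM by construction, and the other causes were not tested. Over all genes tested, those past both thresholds numbered 1758, 345 when limma used log2(RPKM + 1) unfiltered, 348 when filtered, 909 with limma on log2(RPKM + 0.1) and 1195 with at least 10 counts in every library. The median log2 fold change of all genes lay between −0.0074 and 0.0117 in every setting.

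The replicate numbers were not shown to pair the libraries, because the correlation of residuals between same-numbered libraries was 0.0617, 0.190 and 0.0826. With the replicate block, 7 of the 10 genes were higher and 2 lower, with 2 and 1 past both thresholds, as without it, and 19 other pathway genes were higher and 22 lower, in place of 20. The 3 ratios kept their direction with each library left out. The groups did not overlap in any of them, so leaving out a library could not have turned the direction.

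Counts limit what can be said of TNFRSF10C, TNFSF10, LTB, NGFR, EDAR, GALNT3 and TNFRSF11B, each with fewer than 250 counts in every library. The unknown use of strand limits FAS, FADD and CFLAR. It also limits ADAM17, NGFR and PEA15, which share 24.1%, 22.3% and 6.59% of their exon length with an opposite-strand gene and for which no antisense reads were removed. ITCH shares 33.9% of its length with a gene on its own strand.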
